A study of Rattus norvegicus with 8 samples.

Results

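miR-192, miR-194 and miR-215 are microRNAs (miRNAs) of the gut, liver and kidney epithelium, followed here in rat pancreatic islets at 2 ages. All array features that carried these names or the name of a * product of their hairpins were taken, which gave 5 of the 677 miRNAs on the array: rno-miR-192, rno-miR-192*, rno-miR-194, rno-miR-194* and rno-miR-215, written without the species prefix from here on and each measured by 2 probes printed as 10 features. Pancreatic islets are small endocrine organs made mostly of beta cells, which secrete insulin. The RNA was extracted from islets of Sprague Dawley rats labelled as controls, either 10 days old (P10, 4 arrays) or males of 3 months (adult, 4 arrays), and the labels number the arrays of each age as biological replicates without saying how many animals gave each one. Sex is labelled for the adult rats alone, so it may differ along with age. The series addresses the maturation of beta cells.

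A miRNA is cut from a hairpin precursor and guides silencing proteins to messenger RNAs, mainly through its seed, the bases next to its 5′ end. The genes of miR-192, miR-194 and miR-215 lie in paired clusters, and their products are known to be abundant in the intestine, liver and kidney. Members of the group are also known as targets of p53 that restrain the cell cycle. Their sequences show which members could act on the same targets and which share a precursor. In the mature sequences below, from RefSeq (build GRCr8), capitals mark the seed, bases 2 to 8. All 5 array names were matched by name, with miR-192 taken as miR-192-5p, miR-194 as miR-194-5p and the * products as the 3p arms.
miR-192-5p: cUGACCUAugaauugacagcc
miR-215: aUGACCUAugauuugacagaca
miR-194-5p: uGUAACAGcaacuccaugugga
miR-192-3p: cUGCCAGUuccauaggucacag
miR-194-3p: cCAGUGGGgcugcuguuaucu

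miR-192-5p and miR-215 had the same seed, and among 693 mature rat miRNA names in the RefSeq table no other name had it. Over 21 compared positions they were identical at 18 and differed by C1A, A12U and C20A, counted from 1 at the 5′ end with the base of miR-192-5p first. The seed of miR-194-5p was found in no other mature miRNA of the table. miR-194-5p came from 2 hairpins on different chromosomes, printed here with the annotated mature arms in capitals, so a signal for miR-194 does not tell which gene it came from.
Mir194-2: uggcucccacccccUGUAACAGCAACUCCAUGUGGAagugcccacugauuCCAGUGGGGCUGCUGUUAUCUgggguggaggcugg
Mir194-1: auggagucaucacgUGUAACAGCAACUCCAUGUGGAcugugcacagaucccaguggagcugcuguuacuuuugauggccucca

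Mir194-2 (chr1:212994024-212994108) lay 100 bases before Mir192 (chr1:212994209-212994318), and Mir194-1 (chr13:99382716-99382798) lay 191 bases before Mir215 (chr13:99382990-99383086). All 4 hairpins were on the plus strand of GRCr8.

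The arrays differed in brightness before any scaling. A probe was counted as well above background where most of its features carried the scanner software's mark for it. Over the probes that met this on all 8 arrays, the 75th percentile signal was lowest on P10 replicates 1 and 2 (388 and 440), higher on replicates 3 and 4 (989 and 1690) and 1284 to 1677 in adult. Each array was divided by this percentile and log2 was taken, so a value of 0 equals that percentile, and values were raised to a common floor of -5.51, below which signals have no order. A single slide, scanned in 1 run, held all 8 arrays. Each age filled a slide column of its own, and the effects of age and column cannot be told apart. The islet marker miR-375 was well above background on all 8 arrays (2.89 to 3.91).

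All 3 main products were lower in adult islets than in P10 islets. miR-192 fell 6.88-fold and miR-194 fell 10.6-fold. None of the 4 adult arrays had miR-215 well above background. By its brighter probe and with this scaling it was lower in adult by at least 43.5-fold. That bound was 26.8-fold without P10 replicate 3 and 77.5-fold without P10 replicate 2. The sizes differed widely among the 4 P10 samples, which spanned 9.62-fold for miR-192, 10.5-fold for miR-194 and 24.0-fold for miR-215. P10 replicates 3 and 1 were the high samples for all 3, and replicate 2 was the lowest.

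On P10 replicates 1 to 4, miR-192 had scaled signals of 1.63, -0.81, 2.46 and 0.013 on the log2 scale. On adult replicates 1 to 4 it had -1.999, -1.77, -1.53 and -2.52. Every P10 array lay above every adult array, with P10 replicate 2 only 0.73 above adult replicate 3. The mean was 0.82 ± 1.49 (SD, n = 4) in P10 and -1.96 ± 0.42 (SD, n = 4) in adult. The log2 difference, adult minus P10, was -2.78 ± 0.68 (SE), with a limma adjusted p of 0.0107 (Benjamini-Hochberg over 238 tested miRNAs).

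For miR-194, P10 replicates 1 to 4 gave 1.10, -1.48, 1.91 and -0.47, and the adult replicates in turn gave -3.17, -2.998, -2.83 and -3.57. The ages did not overlap, and the lowest P10 array lay 1.36 above the highest adult array. The means were 0.26 ± 1.53 (SD, n = 4) and -3.14 ± 0.31 (SD, n = 4). The difference was -3.41 ± 0.69 (SE), with a limma adjusted p of 0.00418.

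miR-215 lay at 1.02, -2.51, 2.07 and -0.64 on P10 replicates 1 to 4 and at the floor on all 4 adult arrays. Its mean in P10 was -0.015 ± 2.01 (SD, n = 4). The bound of 43.5-fold divides that mean by a detection limit averaged over the adult arrays. The limit of an array was its dimmest probe well above background, or miR-215 itself at the floor where that was higher. It met the filter for testing (4 of 8 arrays well above background) through its P10 arrays alone, so its direction was fixed by that filter, and its limma adjusted p of 0.00151 is given as a description. The floor also set the adult SD to 0. The fitted difference of miR-215 was -5.49 here and ran from -16.9 (no common floor) to -3.90 (array weights) over 26 alternatives. With the mean over all probes it was -4.06. The bound thus holds for the brighter probe, this scaling and an unweighted mean.

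miR-192 and miR-194 were both called lower in adult without overlap of the ages. Of the 238 tested miRNAs, 20.2% were called lower in adult, 47.5% were called in either direction, and 45.8% had ages that did not overlap. Ranked by the fitted difference, miR-215 had the lowest value of the 238 tested miRNAs, miR-194 was at rank 2 and miR-192 at rank 6, where the place of miR-215 depends on the floor. An exact two-sided permutation test over the arrays gave p = 0.0286 for miR-192 and for miR-194 (also 0.0286 after Benjamini-Hochberg adjustment over the members), the smallest value that 70 splits allow. In a bulk sample, fewer cells of a type and less RNA per cell cannot be told apart. With spike-in scaling miR-192 (-1.74, adjusted p = 0.107) and miR-194 (-2.37, adjusted p = 0.056) lost their calls (limma). miR-192 also lost its call without scaling (-1.82, adjusted p = 0.0912), after cyclic loess on all probes (-1.46, adjusted p = 0.189) and without the filter on dim miRNAs (adjusted p = 0.0784). With array weights the differences were smaller, at -1.65 for miR-192 and -2.23 for miR-194, and miR-194 was at -2.45 without scaling and -2.71 after cyclic loess on all probes, all with an adjusted p under 0.05.

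**Figure D1:**
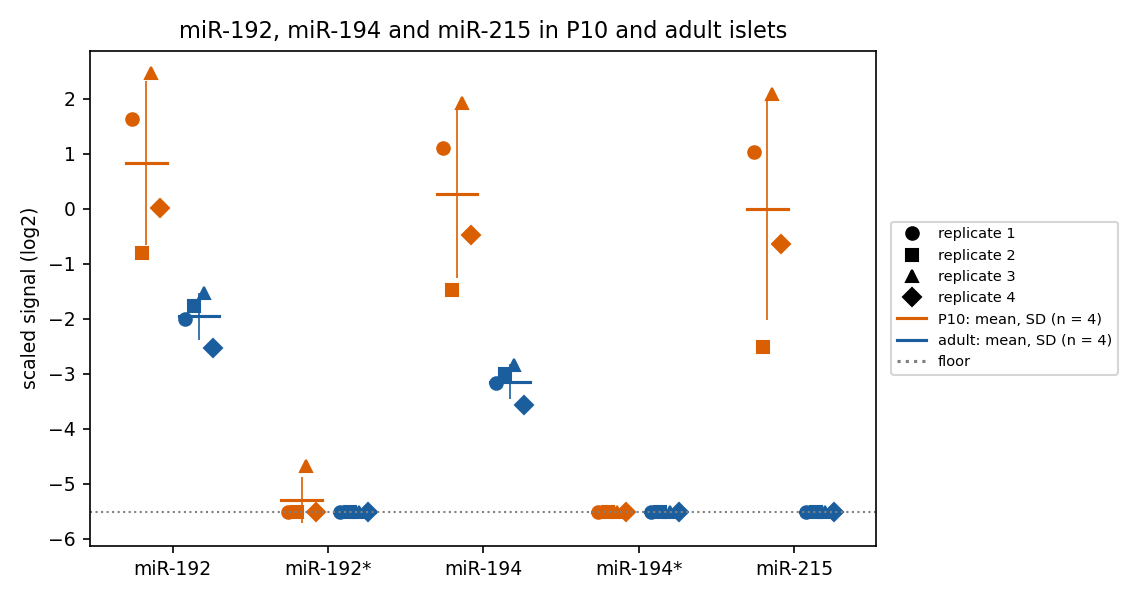
Scaled signal (log2) of the 5 products on each array, with P10 in orange and adult in blue; symbols mark the replicate number, horizontal bars the mean and vertical bars the SD of 4 arrays, and the dotted line the floor at -5.51. For miR-192, miR-194 and miR-215 all P10 arrays lie above all adult arrays, and miR-215 is at the floor in adult.

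Before scaling, the ages overlapped for miR-192 and miR-194 and not for miR-215. On P10 replicates 1 to 4 the brighter miR-192 probe had mean background-subtracted signals of 1205, 251, 5438 and 1705. Its adult signals, in the same order of replicates, were 339, 409, 580 and 223. P10 replicate 2, the second dimmest array, thus lay inside the adult range. For miR-194 the signals were 831, 158, 3719 and 1217 in P10 and 150, 175, 235 and 108 in adult, again with P10 replicate 2 inside the adult range. For miR-215 they were 789, 77.0, 4165 and 1084 in P10 and between -5.01 and -0.81 in adult. The adult arrays carried a clear signal at the miR-192 probe and none above background at the miR-215 probe. The mature sequences of these miRNAs differ at 3 of 21 positions. Whether either probe also picks up the other miRNA was not tested.

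The second probe of miR-192 and of miR-194 gave nearly the same age difference. For miR-192 the dimmer probe lay 1.21 to 1.37 below the brighter one on all 8 arrays, and its age difference was -2.78, as for the brighter probe. For miR-194 the gap was 1.53 to 1.70 in P10 and 1.80 to 1.84 in adult, and the age difference of the dimmer probe was -3.58. The dimmer miR-215 probe was well above background on 3 P10 arrays, all but replicate 2 (-5.46), and on no adult array. From P10 replicate 2 to P10 replicate 3 the rise was 3.27 and 3.35 by the miR-192 probes, 3.39 and 3.34 by the miR-194 probes, and 4.59 by the brighter miR-215 probe. The coefficient of variation over the features of one probe on one array was 2.48% to 10.9% for the brighter probes, which covers variation within an array and not that of preparation, labelling or hybridisation.

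**Figure D2:**
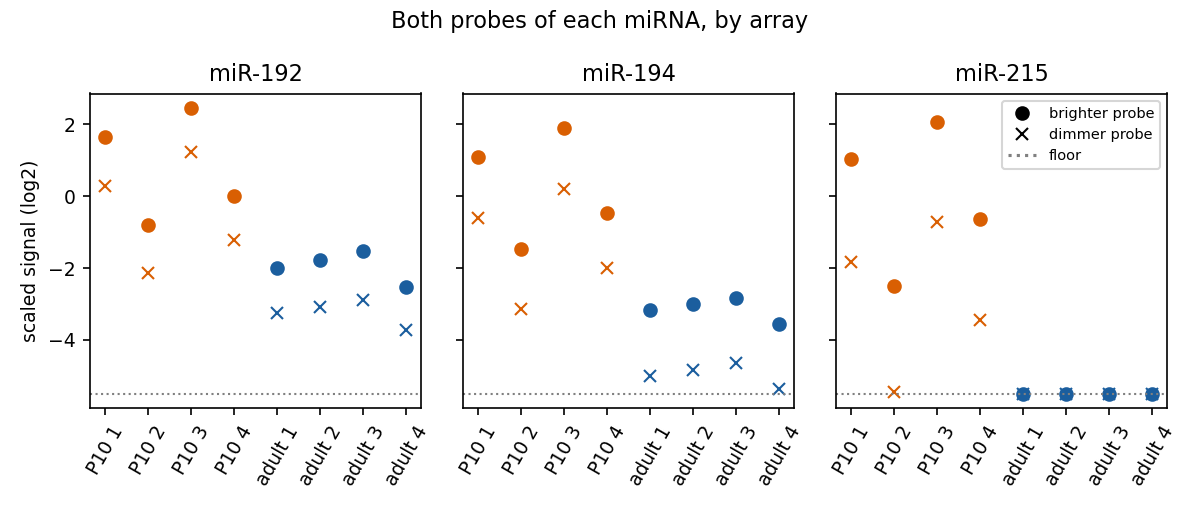
Scaled signal (log2) of the brighter probe (circles) and the dimmer probe (crosses) of miR-192, miR-194 and miR-215 on each of the 8 arrays, with P10 in orange, adult in blue and the floor dotted. Among the P10 arrays, both probes of each miRNA are highest on replicate 3 and lowest on replicate 2. On replicate 2 the dimmer miR-215 probe is not well above background.

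In the authors' value table, which holds 1 log2 value per miRNA and array on a scale of its own, miR-192 was at 11.6, 9.07, 12.6 and 10.1 in P10 and between 7.59 and 8.48 in adult. miR-194 was at 10.9, 8.29, 12.1 and 9.36 in P10 and between 6.54 and 7.18 in adult. miR-215 was at 10.6, 7.01, 12.0 and 8.91 in P10 and at 2.50 on every adult array. The P10 replicates fell in the same order for all 3 as in the scanner values, and the limma adjusted p was 0.0131 for miR-192 and 0.00838 for miR-194.

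The minor arms of the hairpins were near or below background. miR-192*, the 3p arm of the miR-192 hairpin, was well above background on P10 replicate 3 alone, the array with the highest miR-192, where all 10 features of 1 probe passed with a mean signal of 38.7. On the other 7 arrays that probe gave -4.39 to 6.10. miR-194* stayed below the background mark on all 8 arrays, with a highest probe mean of 15.4, also on P10 replicate 3. Neither * product was tested.

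miR-194 stood lower against miR-192 in adult than in P10. The miR-194 signal minus the miR-192 signal within an array, which does not move with the scaling of the array, was -0.54, -0.67, -0.55 and -0.49 on P10 replicates 1 to 4. It was -1.17, -1.22, -1.30 and -1.04 on adult replicates 1 to 4, so the ages did not overlap. The means were -0.56 ± 0.08 (SD, n = 4) and -1.19 ± 0.11 (SD, n = 4), a shift of -0.62 (exact permutation test, two-sided, p = 0.0286, the smallest that 70 splits allow). It was the 1 pair tested, since miR-215 has only a bound in adult. The within-array value itself does not rank the levels of the miRNAs, because their probes differ. The gap between the 2 probes of miR-194 also did not overlap between the ages (1.53 to 1.70 in P10, 1.80 to 1.84 in adult). With P10 replicates 3 and 4 alone the shift was -0.67, with an exact p of 0.0667, the smallest possible there. After cyclic loess on all probes, which shifts dim and bright probes differently, it was -1.25 and did not pass (exact p = 0.2).

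**Figure D3:**
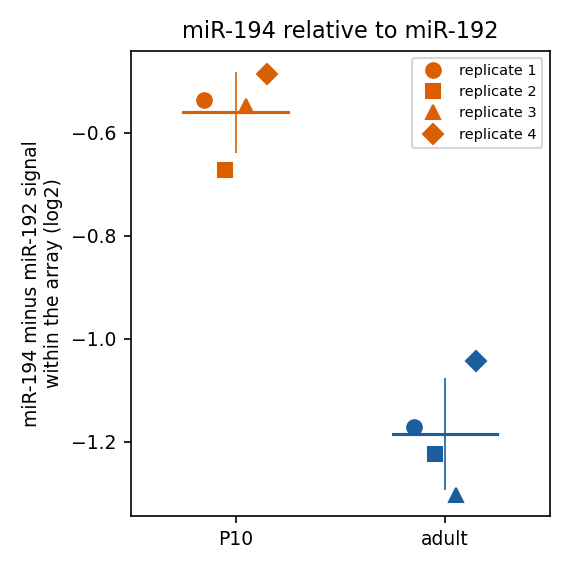
miR-194 minus miR-192 scaled signal (log2) within each array, by age, with symbols for the replicate number, horizontal bars for the mean and vertical bars for the SD of 4 arrays. The P10 arrays lie between -0.67 and -0.49 and the adult arrays between -1.30 and -1.04.

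Among the P10 arrays miR-192 and miR-194 kept almost the same profile despite their wide range. Centred on the P10 mean, they differed by 0.055 on average over the 4 arrays. miR-215 followed them with a wider range, and its value minus that of miR-192 was -0.61, -0.38 and -0.65 on P10 replicates 1, 3 and 4 and -1.71 on replicate 2, the array on which all 3 were lowest.

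Few miRNAs varied as much among the P10 arrays. Of 171 tested miRNAs well above background on all 4 P10 arrays, miR-215, miR-194 and miR-192 had the ranks 2, 4 and 5 by the range from lowest to highest array (4.59, 3.39 and 3.27), where the median range was 0.76. The ranks 1 and 3, named after their values were seen, went to miR-494 (5.47) and to the leukocyte miRNA miR-142-3p (3.58). miR-142-3p did not share the pattern, at -2.22, -1.67 and -2.07 on P10 replicates 1 to 3 and 1.36 on replicate 4. The order of the P10 arrays in the group (replicates 3, 1, 4, 2 from high to low) was found in 6 of the 171 miRNAs: the 3 members, miR-150, miR-22 and miR-28, the last pair also named after their values were seen. In adult islets the ranges of miR-192 (0.99) and miR-194 (0.73) had the ranks 14 and 24 of 215, where the median was 0.26.

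**Figure D4:**
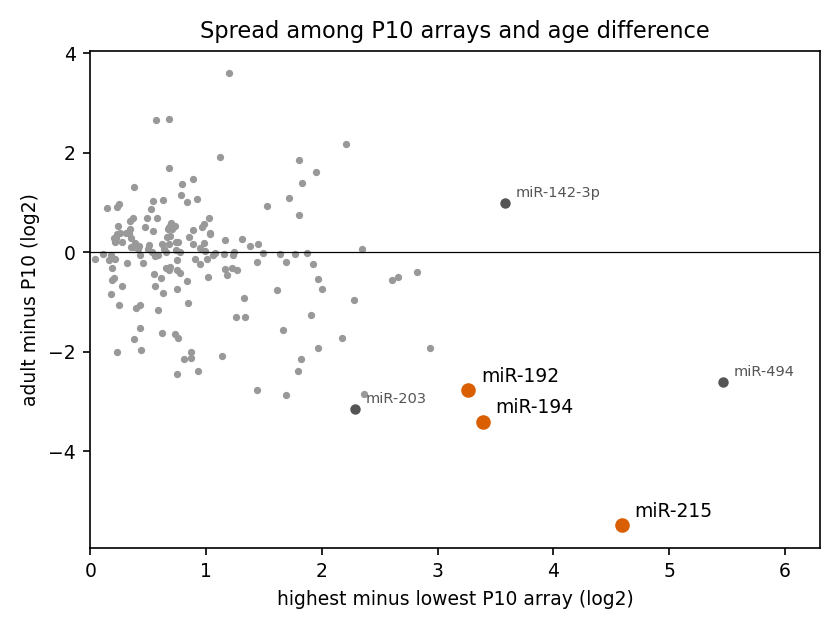
Range among the 4 P10 arrays (highest minus lowest, log2) on the x axis and adult minus P10 difference (log2) on the y axis for the 171 tested miRNAs well above background on all P10 arrays. The 3 members, in orange, lie at the lower right, with ranges of 3.27, 3.39 and 4.59; miR-203, miR-142-3p and miR-494 are labelled in grey.

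The miRNA outside the group with the most similar profile was miR-203, known from the differentiation of stratified epithelium. Likeness was measured as the mean absolute difference of centred values, and miR-203 was the nearest non-member for all 3 both over the 8 arrays (0.37 from miR-192, 0.39 from miR-194 and 1.33 from miR-215, among 237 miRNAs) and over the 4 P10 arrays (0.48, 0.54 and 0.91, among 170). miR-203 lay at -1.68, -2.98, -1.14 and -3.43 on P10 replicates 1 to 4, high on replicates 1 and 3 like the group. In adult it was well above background on 1 array and at the floor on the other 3, so the fitted size depends on the floor. That difference was -3.15 ± 0.48 (SE, n = 4 per age, limma adjusted p = 0.00112, and -0.89 with adjusted p = 0.208 with cyclic loess over all probes).

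The next nearest over the 4 P10 arrays were miR-150, known from mature lymphocytes (0.72 from miR-192), and miR-378, which lies in the gene of a metabolic coactivator (0.76). miR-150 was at -0.55, -1.95, 0.054 and -0.56 on P10 replicates 1 to 4 and its age difference of -0.74 did not pass (limma adjusted p = 0.154). It passed without P10 replicate 2 (-1.14, adjusted p = 0.00241) and in 2 other settings, and was 0.22 without scaling and 0.30 with spike-in scaling. miR-378 was at -1.70, -2.47, -1.85 and -3.37 and fell by 1.58 on the log2 scale (adjusted p = 0.00613, lost without scaling and with spike-in scaling at -0.62 and -0.54). Over the 8 arrays miR-181d, miR-130b, miR-17-5p and miR-20a, all lower in adult, were also among the 5 nearest of at least 1 member, at 0.72 to 1.79. Unlike the group, all 4 had P10 replicates 1 and 2 above replicates 3 and 4.

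Markers of other cell types were set beside the group. Their counts stand beside 27.3% called higher and 20.2% called lower in adult over all 238 tested miRNAs. The hepatocyte miR-122 and miR-122* were not well above background on any of the 8 arrays. The acinar markers miR-216a, miR-216b-5p and miR-217, from the enzyme-secreting cells around the islets, had their high P10 values on replicates 1 and 2 (summed level -0.058 and -0.32 on the log2 scale) and their low ones on replicates 3 and 4 (-3.63 and -3.92), while miR-192, miR-194 and miR-215 were highest on replicate 3. In adult their summed level was -2.12 to -1.12, and 0 of 3 passed here (limma; 1 without scaling or with spike-in scaling, 3 with P10 replicates 3 and 4 alone). Of the stratified epithelium markers, miR-203 passed as lower and miR-205 did not (-1.26 ± 0.46 SE, adjusted p = 0.053). miR-205 lay at -3.33, -3.14, -4.95 and -5.05 on P10 replicates 1 to 4, so it did not peak on replicate 3. Its call depended on the processing: it passed as lower in 7 of 26 alternatives, among them those without P10 replicate 3 (-1.54, adjusted p = 0.0272) and without P10 replicate 4 (-1.57, adjusted p = 0.0199), and stood at 1.79 after cyclic loess on all probes (adjusted p = 0.595). The summed level of the list was -1.28, -2.06, -1.04 and -3.02 on P10 replicates 1 to 4 and -4.51 to -4.33 in adult.

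The simple epithelium markers of the miR-200 family did not share the fall. Their summed level was 3.42 to 3.99 in P10 and 4.02 to 4.11 in adult. Of the 5, 2 passed as higher in adult (miR-200c at 0.87 ± 0.14 SE, n = 4 per age, limma adjusted p = 0.00155) and 0 as lower. Over all 238 tested miRNAs 27.3% passed as higher and 20.2% as lower, and no list of markers was tested against these shares. With cyclic loess on bright probes and with scaling on summed signal, 2 of the 5 passed as lower. The median of this list was 0.17 here and turned negative in 5 other scalings, down to -0.33 with quantile normalization. Of the remaining lists, 3 of 3 islet endocrine markers passed as higher (0 with quantile normalization, cyclic loess over all probes or in the authors' value table). Of 5 mesenchymal markers 1 was higher and 3 were lower (0 and 0 without scaling), 2 of 2 erythroid markers were higher (1 in 6 other settings, among them no scaling and normexp). None of 4 leukocyte and of 2 endothelial markers passed here, though 1 endothelial marker was lower with quantile normalization or normexp and 2 with P10 replicates 3 and 4 alone. The leukocyte marker miR-142-3p passed as higher without P10 replicate 4 (1.83, limma adjusted p = 0.000296). The part of any of these cell types in the difference of miR-192, miR-194 and miR-215 was not tested.

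Other miRNAs known as p53 targets were also set beside the group. Of 8 listed, 7 were on the array and 5 were tested, of which miR-143 passed as higher (0.93 ± 0.33 SE, limma adjusted p = 0.0485, lost in 20 of 27 alternatives) and miR-16 as lower (-0.33 ± 0.09 SE, adjusted p = 0.0242, turning to 0.14, 0.63 and 0.72 with the percentile over all probes, no scaling and spike-in scaling). Over all 238 tested miRNAs 27.3% passed as higher and 20.2% as lower, so these counts do not set the list apart. The median of the 5 was 0.47 (-0.21 with normexp), against -0.01 over all 238 tested miRNAs. A part of p53 in the difference of miR-192, miR-194 and miR-215 was not tested. miR-34a, the best known miRNA target of p53, stood at -0.05 ± 0.37 (SE, adjusted p = 0.942), with -1.34, -1.72, -2.82 and -2.98 on P10 replicates 1 to 4.

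**Figure D5:**
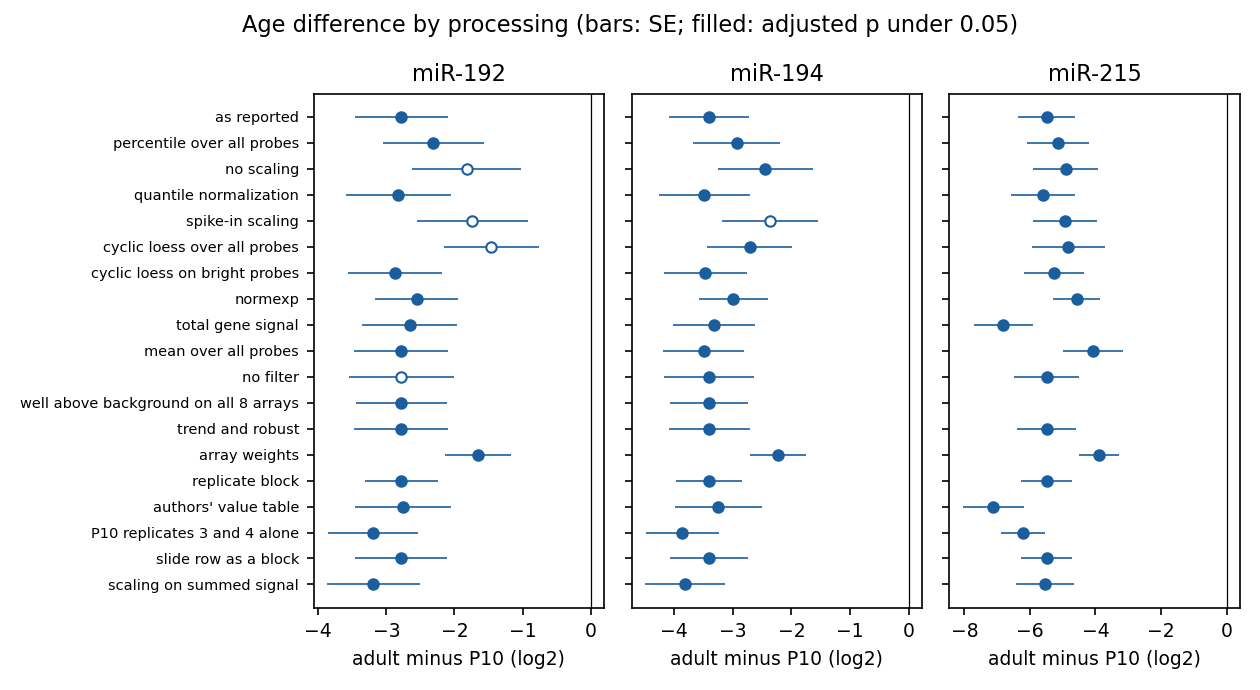
Adult minus P10 difference (log2) of miR-192, miR-194 and miR-215 as reported and under the other processing settings, with bars for the SE from limma; filled circles have an adjusted p under 0.05. All circles lie below 0; open circles mark lost calls, 4 for miR-192 and 1 for miR-194. miR-215 has no value when only miRNAs above background on all 8 arrays are kept, and the setting without a common floor is not drawn.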

How the data were processed

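The authors' deposited scanner files hold intensity values of 1-colour Agilent rat miRNA arrays, read by Feature Extraction 10.7.3.1 from Agilent (version per the file headers), with total RNA labelled with cyanine 3, per the labels. The processed signal is already background-subtracted. The authors' deposited value table holds log2 values of 311 miRNAs. Its processing is not described in the sources used here. Its columns share 1 set of sorted values, as after quantile normalization, and their order matches the total gene signal.

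Features flagged as outliers (2.34% to 3.65% per array) were left out, the others averaged per probe, and each array was divided by its 75th percentile, taken over 278 probes that passed the background mark on every array. Each miRNA was represented by its brightest probe. Testing covered the 238 miRNAs that passed that mark on 4 or more of the 8 arrays. The fit used limma 3.58.1 in R 4.3.3 (lmFit, eBayes), calling adjusted p-values (Benjamini-Hochberg) under 0.05. It was also run on simulated data with equal spread at the 2 ages and no floor. The members had a wider spread in P10 than in adult, which that run does not cover. The number of arrays limits the precision, and p-values set the age difference against the spread between these samples. Members, marker lists, p53 list and alternatives were chosen with earlier results of these data known. Named miRNAs are the members, listed markers and, per member, the 5 nearest by mean absolute difference. miR-494, miR-22 and miR-28 were named after their values were seen. The normexp correction used median signals, and spike-in scaling used the controls dmr_285 and dmr_31a. Slide row as a block, scaling on summed signal and cyclic loess for the shift of miR-194 against miR-192 were added after seeing the data.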

Additional observations from a re-analysis of the deposited data

Results flagged for a closer look

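The members, their nearest miRNAs, part of the listed markers and p53 targets and the miR-194 minus miR-192 difference were screened. Other named miRNAs, such as miR-375, miR-34a and miR-494, were not. Of 40 groups of 4 arrays, 5 held 1 array that stood apart. Its gap to the nearest other, as a share of the range, exceeded the 95% critical value of Dixon's test. Groups with all 4 arrays at the floor, such as miR-215 in adult, count in the 40 but could not be flagged. Chance gives about 1 in 20 for measured values, but in 3 of the 5 the other arrays were tied at the floor, which sets the gap by itself and to which that rate does not apply. miR-192* stood at -4.67 on P10 replicate 3 with the other P10 arrays at the floor of -5.51, and P10 replicate 3 also had the highest miR-192, miR-194 and miR-215. miR-203 was at -5.32 and miR-181d at -5.45 on adult replicate 3, with the other adult arrays at the floor. The other 2 rest on measured values. miR-142-3p was at 1.36 on P10 replicate 4, against -1.67 on the next array. miR-143 was at 2.13 on adult replicate 4, against 2.59 on the next.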

How the results depend on the processing

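miR-192, miR-194 and miR-215 stayed below 0 in all alternatives run (27, 27 and 26). miR-194 kept its call in 26 of 27, the exception being spike-in scaling (-2.37). miR-215 could not be tested with miRNAs above background on all 8 arrays, and its calls elsewhere show nothing of stability, since it entered through P10 alone. miR-192 kept it in 23 and lost it with spike-in scaling (-1.74), without the filter (-2.78), by cyclic loess on all probes (-1.46) and without scaling (-1.82). Without 1 array the differences were -3.33 to -2.24 for miR-192, -3.99 to -2.86 for miR-194 (all called) and -6.32 to -4.79 for miR-215. The shift of miR-194 against miR-192 was -1.25 to -0.44 over 17 alternatives (-0.67 to -0.59 without 1 array). The exact p was 0.0286 in 15 of them, and above 0.05 with P10 replicates 3 and 4 alone (-0.67) and after cyclic loess on all probes (-1.25). The median difference of tested miRNAs was -0.01 here, 0.45 with the percentile over all probes, 0.94 without scaling, 1.02 with spike-in scaling and -0.40 with scaling on summed signal. Relative to it miR-192 stood at -2.77 here, -2.76 with spike-in scaling or none, -1.61 after cyclic loess on all probes and -1.60 with array weights, where miR-194 stood at -2.17. The count of called miRNAs, 113 here (57.5% higher in adult), was 75 without scaling (77.3%), 63 with spike-in scaling (85.7%), 34 with cyclic loess over all probes (35.3%), 179 with array weights and 84 to 138 without 1 array. The share higher was 72.6% with the percentile over all probes, 41.2% with normexp and 26.1% with scaling on summed signal. miR-16 turned to 0.14, 0.63 and 0.72 with the percentile over all probes, no scaling and spike-in scaling. The cause of these changes was not tested. For replicates 1 to 4, the deviations of same-numbered arrays from their age means had correlations of 0.18, -0.09, 0.48 and -0.23. These values do not settle whether the numbers pair the samples, which the labels do not state. With the replicate block the count was 95, and miR-192 (-2.78, limma adjusted p = 0.0136) and miR-194 (-3.41, 0.00862) kept their calls. miR-215 was at -5.49 there, its direction again fixed by the filter. With slide row as a block the count was 90. Dim signal limits miR-215 in adult to a bound and left the * products untested.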
